A study of Mus musculus with 9 samples.

Results

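Hedgehog receptors, regulators and GLI transcription factors were examined in cultured mouse knee chondrocytes, the cells that make cartilage. The set comprised 7 genes, chosen by symbol among the 56748 genes of the count table: Ptch1, Smo, Hhip, Sufu, Gli1, Gli2 and Gli3. All 7 were found, 6 passed the filter on low counts, and Hhip did not. RNA sequencing had been done on 9 libraries of wild-type chondrocytes, freed from knee cartilage with collagenase and grown in serum-containing medium. The groups were 3 control libraries without cytokine, 3 libraries of cells given interleukin-1β (IL-1β), a cytokine that provokes inflammation in joints, and 3 of cells given IL-1β with recombinant SFRP5, a soluble antagonist of Wnt ligands. The labels give no dose, no duration and no origin of replicates from separate animals or cultures, so p-values rest on a spread between libraries that may be technical only. No group received SFRP5 without IL-1β.

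Hedgehog ligands are secreted proteins, and the one best known in cartilage is Indian hedgehog, made by chondrocytes that are about to enlarge in the growth plate. PTCH1, the ligand's receptor, holds the membrane protein SMO inactive until a ligand binds. Active SMO then works in the primary cilium to keep GLI2 and GLI3 from being cut into repressors, and the full-length factors switch on target genes, of which Gli1, Ptch1 and Hhip are the usual readouts. SUFU binds GLI proteins and restrains them, and HHIP captures ligand at the cell surface. GLI2 serves mainly as an activator and GLI3 mainly as a repressor.

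Promoter sequences are shown for the gene that rose after IL-1β, Ptch1, and for the gene of the set that fell most among those with a promoter in the RefSeq table, Gli2. Both were chosen after their values were seen. The table (GRCm38.p6) held 6 of the 7 genes, all but Gli1. The stretches are the 250 bases before the start on the minus strand, chr13:63565736-63565985 for Ptch1 and chr1:119053620-119053869 for Gli2, written 5′ to 3′ with CG dinucleotides in capitals.
Ptch1: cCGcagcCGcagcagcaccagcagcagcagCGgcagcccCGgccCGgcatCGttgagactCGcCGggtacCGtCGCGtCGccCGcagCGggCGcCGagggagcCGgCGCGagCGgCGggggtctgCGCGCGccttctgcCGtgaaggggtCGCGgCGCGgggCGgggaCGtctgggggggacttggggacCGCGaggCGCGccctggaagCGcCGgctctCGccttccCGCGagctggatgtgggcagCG
Gli2: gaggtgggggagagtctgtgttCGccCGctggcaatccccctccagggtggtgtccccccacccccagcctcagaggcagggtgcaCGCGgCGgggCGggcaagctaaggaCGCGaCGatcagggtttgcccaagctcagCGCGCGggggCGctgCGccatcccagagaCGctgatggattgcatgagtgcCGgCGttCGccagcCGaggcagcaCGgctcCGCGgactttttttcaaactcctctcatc
The Ptch1 stretch held 41 CG dinucleotides and the Gli2 stretch 22, against a median of 6.0 over 32851 promoters of the same length. The other promoters of the set held 34 for Gli3, 28 for Hhip, 15 for Smo and 8 for Sufu. The GLI binding motif GACCACCCA, searched on both strands, occurred in 0 of the 6 promoters and in 74 of all 32851, or 0.225%. These windows leave out more distant elements, so the absence of the letters describes the windows alone.

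Library totals ranged from 15795985 to 20688963 counts, and 3 counts equalled 0.135 to 0.195 CPM, the count relative to the TMM-corrected library size. All 10 listed chondrocyte markers, among them Col2a1, Acan and Sox9, were detected in each group. Their summed level was 112741 to 115269 CPM in control, 24710 to 25991 CPM with IL-1β and 30162 to 31582 CPM with SFRP5 added. All 10 chondrocyte markers fell after IL-1β, as did 40.4% of all tested genes. Of 6 osteoblast markers 4 were tested and all 4 fell, with a summed level of 64.2 to 71.1 CPM in control libraries but 2.43 to 4.12 CPM with IL-1β and 3.13 to 4.93 CPM with SFRP5 added. Macrophage markers summed to 4.88 to 5.35 CPM in control libraries, 19.9 to 22.7 CPM with IL-1β and 12.2 to 15.5 CPM with SFRP5 added, with Cd163 at 0 counts throughout. Mrc1 and Cd68 were the highest of them with IL-1β, at 11.2 and 6.80 CPM on average. Ptprc, Adgre1 and Itgam had too few counts for the test, at 6, 20 and 7 in control and 12, 20 and 5 with IL-1β. Of the 3 macrophage markers tested, Csf1r and Mrc1 fell with SFRP5 added relative to IL-1β alone, by 1.31 and 1.02 on the log2 scale (edgeR, adjusted p = 0.00132 and 8.3e-06). Cd68 did not pass the threshold, at a log2 difference of -0.12 (edgeR, adjusted p = 0.637). In these bulk libraries fewer cells of a type and less RNA per cell cannot be told apart, and the part of these shifts in the results on Hedgehog genes was not tested.

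IL-1β was followed by a fall of 5 of the 6 tested genes and a rise of 1, Ptch1. Gli1 went from a clear signal to a single count, Gli2 fell 9.70-fold, and Smo, Gli3 and Sufu fell by smaller amounts. Across all 15502 genes tested 78.9% were called at an adjusted p under 0.05, 40.4% as falling and 38.5% as rising, so that a call as such was common. The median log2 change of the 6 genes was -1.22, beside -0.03 over all genes tested. Single genes were tested with edgeR's quasi-likelihood method, with Benjamini-Hochberg adjustment over all genes tested. The libraries of both groups were separate in CPM for all 7 genes, as for 80.0% of all tested genes.

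Among the receptors, Ptch1 (ENSMUSG00000021466) was at 99.9, 100.4 and 100.1 CPM in control libraries 1 to 3, at 123, 133 and 139 CPM with IL-1β and at 125, 117 and 139 CPM with IL-1β and SFRP5. Every stimulated library was above every control library, and the 2 stimulated groups overlapped. The increase after IL-1β was 0.40 ± 0.06 (SE) on the log2 scale, or 1.32-fold (edgeR, adjusted p = 4.17e-07). Ptch1 was thus the only tested gene of the set that rose; 66.5% of all tested genes had a lower log2 change.

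Smo (ENSMUSG00000001761), which encodes the transducer that PTCH1 holds in check, was at 264, 268 and 257 CPM in control, at 95.5, 104 and 101 CPM with IL-1β, and at 121, 118 and 129.8 CPM with SFRP5 added. The 3 groups did not overlap, with control highest and IL-1β alone lowest. Smo fell by 1.39 ± 0.05 on the log2 scale after IL-1β, which is 2.62-fold lower (edgeR, adjusted p = 1.8e-19).

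The counts of the 2 receptors can be set against each other within a library, which needs no scaling between libraries. In control there were 0.379, 0.375 and 0.389 Ptch1 counts for each Smo count, with IL-1β 1.29, 1.28 and 1.38, and with SFRP5 added 1.03, 0.995 and 1.07. The ratio was therefore higher in every IL-1β library than in any control library, and in between with SFRP5. The mean was 0.381 ± 0.00741 (SD, n = 3) in control, 1.31 ± 0.0541 with IL-1β and 1.03 ± 0.0398 with SFRP5. A two-sided exact permutation test gave p = 0.1 for IL-1β against control and for SFRP5 added against IL-1β alone, the smallest p that 3 against 3 libraries allow. The ratio of counts also depends on the lengths of the 2 genes, so its size says nothing of the ratio of molecules.

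**Figure D1:**
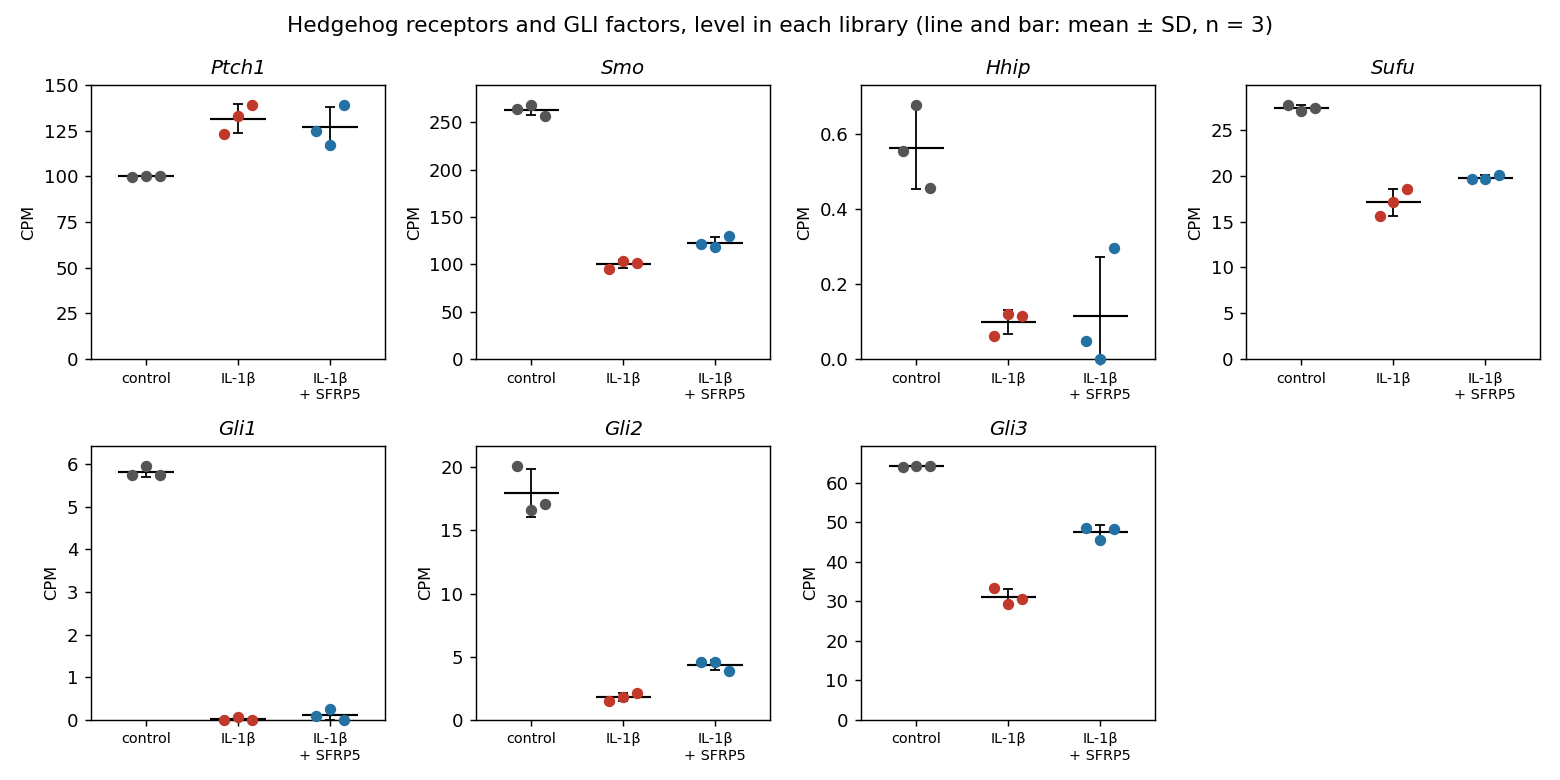
Level in CPM (vertical axis, from 0, a separate scale for each gene) of the 7 genes in the 9 libraries by group, with points for libraries and a line and bar for mean ± SD. Ptch1 lies above its control level in all stimulated libraries, Gli1 sits at or near 0 in them, and Smo, Gli2, Gli3 and Sufu have their lowest values with IL-1β alone.

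Of the inhibitors, Sufu (ENSMUSG00000025231) was at 27.7, 27.1 and 27.4 CPM in control and at 15.6, 17.1 and 18.6 CPM with IL-1β. The groups did not overlap, and the log2 change was -0.68 ± 0.08 (edgeR, adjusted p = 1.31e-08). Hhip (ENSMUSG00000064325), the decoy receptor and a target of the pathway, had too few counts for the test. It had 11, 15 and 9 counts in control, 1, 2 and 2 with IL-1β and 1, 0 and 5 with SFRP5 added. Both stimulated groups lay below control in every library. Over the groups, 35 counts in control against 5 with IL-1β made a depth-scaled ratio of 5.74 (exact 95% interval 2.24 to 18.8), which covers counting error only. Without a low-count filter Hhip was called lower after IL-1β, at a log2 change of -2.41 (edgeR, adjusted p = 0.00622), as it was by DESeq2 (log2 -2.49, adjusted p = 0.0267).

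Of the GLI factors, Gli1 (ENSMUSG00000025407), an activator that is itself switched on by the pathway, had 114, 132 and 113 counts in the control libraries, 0, 1 and 0 with IL-1β, and 2, 4 and 0 with SFRP5 added. Control libraries held 5.74 to 5.96 CPM, while each stimulated library lay at or under 0.260 CPM. The control level was 294 times that with IL-1β by depth-scaled counts, with an exact 95% interval of 52.5 to 11659 for counting error, since it rests on 1 count (edgeR, adjusted p = 8.27e-13). Without IL-1β library 2, which holds that count, the control level was at least 66.1-fold higher, with 3 counts over the IL-1β group taken as the floor. Without IL-1β library 1 or 3 the ratio was 198 or 192. By the fitted log2 change 0.271% of tested genes lay lower, a rank that also rests on 1 count. The fitted value depends on the prior count, as does its rank, and is not used as a bound.

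Gli2 (ENSMUSG00000048402) was at 20.1, 16.6 and 17.1 CPM in control, at 1.52, 1.82 and 2.16 CPM with IL-1β and at 4.59, 4.55 and 3.84 CPM with SFRP5 added. The 3 groups were separate. Gli2 fell by 3.28 ± 0.16 on the log2 scale after IL-1β, or 9.70-fold (edgeR, adjusted p = 3.59e-16).

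Gli3 (ENSMUSG00000021318) was at 64.0, 64.2 and 64.1 CPM in control, at 33.3, 29.3 and 30.6 CPM with IL-1β and at 48.6, 45.5 and 48.3 CPM with SFRP5 added, again without overlap of any 2 groups. Its log2 change after IL-1β was -1.04 ± 0.06, or 2.06-fold lower (edgeR, adjusted p = 5.69e-15). The SD of 0.113 CPM in control was smaller than the 1.77 CPM that counting error alone gives 1 library, and that of Ptch1, 0.252 CPM, smaller than 2.21 CPM, so the closeness of these control values is no measure of the precision.

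Gli2 was lower relative to Gli3 in every stimulated library than in any control library. Gli3 had 3.19, 3.86 and 3.76 counts for each Gli2 count in control, 21.9, 16.1 and 14.2 with IL-1β, and 10.6, 10.0 and 12.6 with SFRP5 added. The ratio rose in every IL-1β library relative to control, a log2 difference of 2.25 (two-sided exact permutation test, p = 0.1, the smallest possible). With SFRP5 all 3 libraries lay between the control and the IL-1β libraries, at a log2 difference of -0.64 from IL-1β alone (exact permutation p = 0.1).

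**Figure D2:**
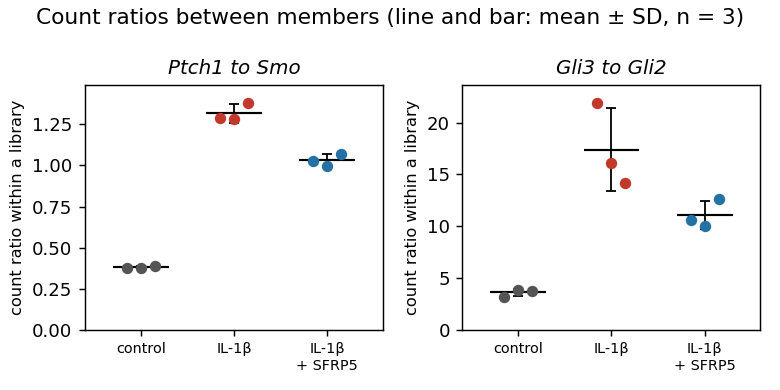
Ratio of counts within each library (vertical axis, from 0) of Ptch1 to Smo and of Gli3 to Gli2, by group, with points for libraries and a line and bar for mean ± SD. Both ratios are lowest in control and highest with IL-1β alone, and no 2 groups overlap in either.

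Per kilobase of the gene length given in the table, Smo was the most abundant of the 7 in control, at 46.8 ± 0.959 CPM per kb (SD, n = 3). Ptch1 followed at 7.06 and Gli3 at 6.68 CPM per kb, then Sufu at 3.57, Gli2 at 2.61, Gli1 at 1.16 and Hhip at 0.0621. Ptch1 and Gli3 differed by a factor of 1.06, and their control libraries did not overlap, at 7.04 to 7.08 against 6.67 to 6.69 CPM per kb. The closeness of these control values is no measure of the precision, and the values depend on the gene lengths given. The separation therefore does not settle the order of these 2 genes in control. With IL-1β the order of the first 5 was the same, but the gap between Smo, at 17.8, and Ptch1, at 9.30 CPM per kb, had narrowed from 6.62-fold to 1.92-fold. Gli1 and Hhip overlapped at the bottom, at 0.00404 and 0.0109 CPM per kb with IL-1β and at 0.0239 and 0.0126 with SFRP5 added. With SFRP5 the first 5 were again in the same order, from Smo at 21.8 to Gli2 at 0.630 CPM per kb.

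Adding SFRP5 to IL-1β was followed by a rise of 4 of the 6 tested genes relative to IL-1β alone, namely Gli2, Gli3, Smo and Sufu, and by a fall of 0. Of all tested genes 31.3% were called in this comparison, 15.6% as rising and 15.7% as falling. The median log2 change of the 6 genes was 0.45, beside 0.01 over all genes tested. Gli1 enters that median with a fitted value of 2.19 that rests on 6 against 1 counts. In a fit of only these 2 groups Gli1 did not pass the filter. The other 5 genes lay between -0.05 for Ptch1 and 1.23 for Gli2. The 2 comparisons share the IL-1β libraries, so the values are set side by side without a test of their relation. In the same comparison 5 of the 10 chondrocyte markers rose and 1 fell, and 2 of 3 tested macrophage markers fell (edgeR).

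Gli2 rose by 1.23 ± 0.19 on the log2 scale with SFRP5, or 2.35-fold (edgeR, adjusted p = 1.26e-05), and 97.7% of tested genes had a lower log2 change. Gli3 rose by 0.61 ± 0.06, or 1.53-fold (edgeR, adjusted p = 6.48e-09), and Smo by 0.29 ± 0.05, or 1.22-fold (edgeR, adjusted p = 2.71e-05). Libraries of the 2 groups were separate for these 3 genes and for Sufu, with SFRP5 higher, and for 40.8% of all tested genes in either direction. Sufu was at 19.7, 19.6 and 20.1 CPM with SFRP5. The Sufu difference of 0.21 ± 0.08 passed narrowly (edgeR, adjusted p = 0.0466). Its call was lost in 14 of 16 alternatives, among them DESeq2 (adjusted p = 0.139), the fit without IL-1β library 1 (edgeR, log2 0.15, adjusted p = 0.212) and the fits without control library 1, 2 or 3 (edgeR, adjusted p = 0.0589, 0.06 and 0.0571). It was also lost without IL-1β library 2 or SFRP5 library 1, 2 or 3 (edgeR, adjusted p = 0.0924, 0.0901, 0.0788 and 0.109).

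Ptch1 did not pass the threshold with SFRP5, at a log2 difference of -0.05 with a 95% interval of -0.17 to 0.06 (edgeR, adjusted p = 0.513). Gli1 had 6 counts over the SFRP5 libraries and 1 over the IL-1β libraries, a 5.76-fold ratio (exact interval 0.699 to 265) (edgeR, adjusted p = 0.19), so a difference was not detectable at this depth. Hhip, with 6 counts against 5, likewise allowed no statement, at a ratio of 1.15 (0.293 to 4.78).

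Against control, cells given IL-1β with SFRP5 still had the same 5 genes lower and Ptch1 higher, among 76.3% of all tested genes called, 39.0% as falling and 37.3% as rising. All 7 genes had no overlap between these groups, as had 78.2% of all tested genes. Ptch1 was higher by 0.34 ± 0.06 on the log2 scale (edgeR, adjusted p = 3.9e-06). The log2 changes were -1.10 ± 0.05 for Smo, -0.47 ± 0.08 for Sufu, -0.43 ± 0.05 for Gli3 and -2.05 ± 0.13 for Gli2, with the largest adjusted p at 4.21e-06 (edgeR). Gli1 was 51.1 times lower by depth-scaled counts, with an exact interval of 23.2 to 140 (edgeR, adjusted p = 3.06e-12). That ratio was 108 without SFRP5 library 2, which holds 4 of the 6 counts, and 34.6 without SFRP5 library 3, which holds none. These ratios with a library left out were chosen after seeing the data.

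**Figure D3:**
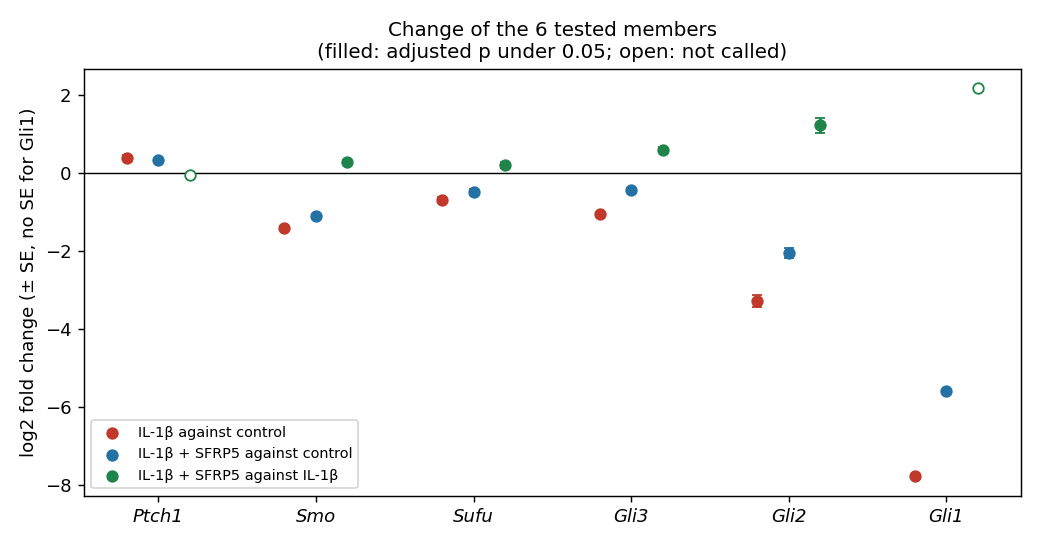
Log2 fold change (vertical axis, ± SE, with none drawn for Gli1 because of its low counts) of the 6 tested genes in the 3 comparisons, filled where called and open where not. Gli2, Gli3, Smo and Sufu lie below 0 against control and above 0 for SFRP5 added to IL-1β, whereas Ptch1 lies above 0 against control and near 0 in the last comparison.

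The other genes of the pathway were counted by their roles. For comparison with each list, 40.4% of all tested genes fell and 38.5% rose after IL-1β, with a median log2 change of -0.03. With SFRP5 added, 15.6% rose and 15.7% fell relative to IL-1β alone, with a median of 0.01. Of 9 genes for ligands, their processing and release, 6 were tested, of which 4 fell and 1 rose after IL-1β, with a median log2 change of -1.80. Ihh, which encodes Indian hedgehog, had 50, 65 and 78 counts in control, 0, 0 and 3 with IL-1β and 0, 2 and 0 with SFRP5 added. All control libraries were above all stimulated ones. The control level of Ihh was 52.8 times that with IL-1β by depth-scaled counts (exact interval 17.8 to 258, edgeR, adjusted p = 5.82e-09). Dhh, for desert hedgehog, was not tested, with 18 counts over the control libraries, 3 over the IL-1β libraries and 8 with SFRP5 added. Shh, for sonic hedgehog, had 0 counts in all 9 libraries, which allows up to 0.135 to 0.195 CPM in a library.

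Disp1, the transporter that releases the lipid-bearing ligand, fell from 48.3 ± 1.44 to 12.9 ± 1.09 CPM (SD, n = 3, edgeR, adjusted p = 6.74e-18), and Scube2, a secreted helper of release, fell from 1.27 ± 0.529 to 0.177 ± 0.158 CPM (edgeR, adjusted p = 0.000115). Hhat, which attaches palmitate to the ligand, was the 1 gene of this list that rose, by 0.81 on the log2 scale. With SFRP5 added, Scube1 rose by 0.45 ± 0.09 relative to IL-1β alone (edgeR, adjusted p = 0.000477) and the other 5 tested were not called.

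All 4 tested co-receptors fell after IL-1β, with a median log2 change of -2.83. Gas1, a membrane-anchored protein that binds ligand together with PTCH1, averaged 345 ± 12.6 CPM in control libraries but 5.74 ± 0.864 CPM with IL-1β, a log2 change of -5.91 ± 0.07 (edgeR, adjusted p = 1.01e-28). Cdon, another co-receptor, fell from 572 ± 4.38 to 57.6 ± 3.58 CPM (log2 -3.31 ± 0.05, edgeR, adjusted p = 5.7e-27), and its relative Boc from 215 ± 3.81 to 42.3 ± 3.59 CPM (edgeR, adjusted p = 5.45e-23). Lrp2 was the other that fell.

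With SFRP5 added, 2 of these 4 co-receptors rose relative to IL-1β alone. Gas1 reached 18.1 ± 1.10 CPM (log2 1.66 ± 0.09, edgeR, adjusted p = 2.65e-13) and Cdon 138 ± 6.90 CPM (log2 1.26 ± 0.05, edgeR, adjusted p = 2.3e-16). Both groups of libraries were separate for each of them. Boc was at 45.4 ± 1.75 CPM and was not called (edgeR, adjusted p = 0.192).

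The 28 ciliary and cytoplasmic regulators went both ways after IL-1β, with 10 up and 14 down and a median of -0.08. The largest changes were falls, of Gpr161, a ciliary receptor that restrains the pathway, by 2.30 ± 0.23 on the log2 scale (edgeR, adjusted p = 2.06e-09), of Kif7, a kinesin that organises GLI proteins at the tip of the cilium, by 1.87 ± 0.13 (edgeR, adjusted p = 1e-12), and of Evc, a ciliary partner of SMO, by 1.70 ± 0.09 (edgeR, adjusted p = 1.23e-14). With SFRP5 added 4 rose, 4 fell and 20 were not called. Kif7 rose by 0.55 ± 0.15 (edgeR, adjusted p = 0.00492) and Evc by 0.53 ± 0.11 (edgeR, adjusted p = 0.000302).

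Reported target genes other than Gli1, Ptch1 and Hhip had no common direction either. Of 20 listed 16 were tested, and 10 fell and 4 rose after IL-1β, with a median of -0.90. Nkx3-2, a factor of early cartilage, fell by 4.03 ± 0.24 on the log2 scale (edgeR, adjusted p = 4.11e-14), whereas Foxf1, a forkhead factor, rose from 6.81 ± 0.784 to 79.3 ± 1.10 CPM (edgeR, adjusted p = 1.03e-23). Prdm1, a transcriptional repressor, had 1 count over the control libraries and 60 with IL-1β, a 73.2-fold ratio (exact interval 12.6 to 2938) (edgeR, adjusted p = 8.04e-07). Most of these genes answer to other pathways as well.

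With SFRP5 added, 8 of the 16 tested targets rose and 3 fell relative to IL-1β alone, beside 15.6% and 15.7% of all tested genes. Nkx3-2 rose by 1.36 ± 0.32 (edgeR, adjusted p = 0.0018) and Snai2, a zinc finger repressor, by 1.22 ± 0.08 (edgeR, adjusted p = 3.72e-12). Prdm1 fell by 1.77 ± 0.51 on the log2 scale (edgeR, adjusted p = 0.00891), with 7, 10 and 1 counts in the SFRP5 libraries against 21, 21 and 18 with IL-1β alone.

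**Figure D4:**
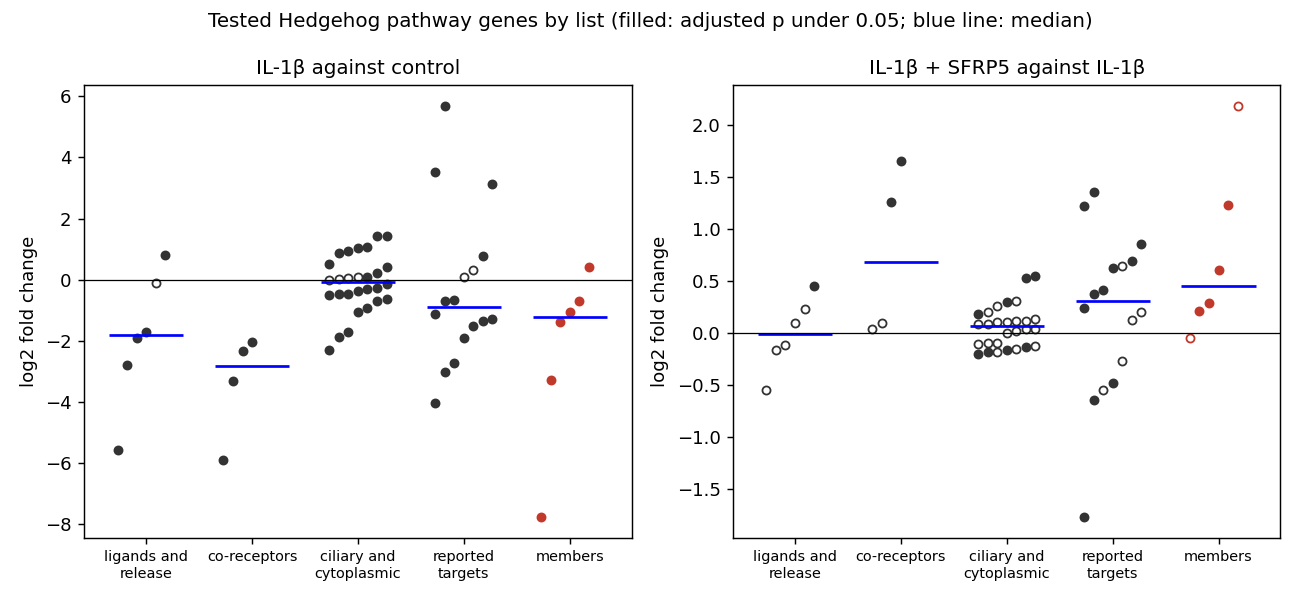
Log2 fold change (vertical axis) of each tested gene in 4 lists of Hedgehog pathway genes and of the 6 tested members, for IL-1β against control (left) and SFRP5 added to IL-1β (right), filled where called, with a blue line at the median. After IL-1β the medians are -1.80 for ligands and release, -2.83 for co-receptors, -0.08 for ciliary and cytoplasmic regulators and -0.90 for reported targets. The median over all genes tested is -0.03.

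The genes with the most similar pattern were sought for each tested gene among all tested genes, by the root mean square distance between log2 CPM of the 9 libraries, each gene centred on its mean. For Gli2 the nearest was the co-receptor Cdon, at a distance of 0.150 and with Pearson r = 0.994, followed by Sox6, a transcription factor of cartilage, at 0.156 and Fam43a at 0.158. For Gli3 it was Il1r1, the receptor for IL-1, at 0.055 (r = 0.997), then Slc5a3 at 0.061 and Pde3a at 0.071. Smo lay nearest to the collagen gene Col1a1 at 0.053 (r = 0.998), Sgce at 0.059 and Cad at 0.061. Ptch1 lay nearest to Lmbrd2 at 0.031, Zbtb4 at 0.050 and Iffo2 at 0.051, and Sufu to Daglb at 0.051, Faxc at 0.056 and Pak3 at 0.058. The genes nearest to Gli1 were farther away, with Acss3 at 0.273, G630022F23Rik at 0.287 and Pde7b at 0.321. Their r was 0.996, 0.993 and 0.992, and the distance is not scaled to the size of a change. The correlations describe 9 libraries that differ mainly by treatment and carry no test.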

How the data were processed

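The deposited table holds unscaled whole-number gene counts. Directional paired-end libraries went through fastp trimming, STAR alignment (mm10) and RSEM quantification, per the labels' protocols; versions, the strand setting and how the estimates became whole numbers are not given in the sources used here. Gene positions in the table, which seemed to be of another assembly than mm10, served only to find gene models that overlap the 7 genes. Overlapping gene models held few counts beside the 7 genes, at most 132 over all libraries (Gm6556, opposite to Gli3). Columns were matched to samples by letter and last digit; the labels do not explain the other digits of the SFRP5 columns.

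Genes passing edgeR's filterByExpr by group (15502; 29182 genes had no count in any library) were tested with edgeR 4.0.16 (R 4.3.3), TMM factors and quasi-likelihood F-tests, in 1 fit over all 9 libraries, with Benjamini-Hochberg adjustment over all genes tested; calls required an adjusted p under 0.05. CPM use TMM-corrected library sizes, and the SE comes from the change and its F statistic. For pattern likeness, log2 CPM had a prior count of 2. Libraries of a group differed by more than sampling noise (chi-square 2.19 to 4.65 per gene). DESeq2 1.42.0, RLE and upper-quartile factors, no low-count filter, a replicate block, a robust fit, only the groups compared and leaving out each library were tried. The edgeR script was tested on simulated data.

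The genes and lists were chosen with earlier results of these data known. Named beside the set were all ligands and, in each list, the 3 largest called changes after IL-1β and with SFRP5 added; some genes of the lists are not reported here. Marker lists also covered hypertrophic chondrocytes, fibroblasts, pericytes, neutrophils and endothelium.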

Additional observations from a re-analysis of the deposited data

How the results depend on the processing

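Under the 16 alternatives run for each comparison, the 5 falls and the rise of Ptch1 after IL-1β kept their direction and their call, and so did those in cells with SFRP5 against control. Upper-quartile factors moved the median log2 change of all genes by -0.15 for IL-1β against control, and Ptch1 was at its lowest in that comparison, 0.25, over these alternatives (range to 0.47, largest adjusted p = 0.000196). For SFRP5 added to IL-1β, Gli2 (1.12 to 1.37), Gli3 (0.57 to 0.66) and Smo (0.25 to 0.32) stayed called, while Sufu (0.15 to 0.28, adjusted p of 0.0183 to 0.212) lost its call in 14, which left 3 of the 4. No pairing by replicate number was seen, as same-numbered libraries of different groups had deviations correlated at -0.036 to 0.04. Pairs with other numbers were at -0.039 to 0.055. With 3 libraries per group and deviations that hold counting noise, this check cannot exclude shared animals or cultures. With the replicate number as a block, Sufu was at an adjusted p of 0.0503, and the counts of called genes of the set were 6, 3 and 6 beside 6, 4 and 6. Over all genes the block gave 12151, 4780 and 11761 calls beside 12227, 4858 and 11828. The fitted log2 change of Gli1 ranged from -9.74, without IL-1β library 2, to -7.27 after IL-1β and from -6.57, without SFRP5 library 2, to -5.05 with SFRP5 against control. Depth limits Gli1 and Hhip, whose stimulated groups held 1 to 6 counts.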

Other observations

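Further marker lists moved in the same libraries. For comparison, 40.4% of all tested genes fell and 38.5% rose after IL-1β. With SFRP5 added, 15.6% rose and 15.7% fell relative to IL-1β alone. Of 5 markers of prehypertrophic and hypertrophic chondrocytes, among them Ihh, 4 fell after IL-1β. Panx3 and Pth1r were among these, at log2 changes of -5.99 and -5.20. With SFRP5 added these 2 rose relative to IL-1β alone, and 3 were not called. The rises were 1.17 and 1.27 on the log2 scale (edgeR, adjusted p = 4.69e-05 and 0.000659). The summed level was 282 to 292 CPM in control, 109 to 116 CPM with IL-1β and 115 to 118 CPM with SFRP5 added. Col10a1 made up most of the sum in both stimulated groups, at 84.6 CPM with IL-1β and 82.2 CPM with SFRP5 added, on average. Fibroblast markers summed to 199.6 to 204 CPM, 887 to 947 CPM and 1132 to 1166 CPM in the same order, with 3 up and 3 down of 6 tested after IL-1β. Prg4 averaged 65.4, 475 and 845 CPM and Pdpn 34.3, 384 and 231 CPM, the highest of the list in both stimulated groups. Cd34 was the other that rose after IL-1β, from 11.6 to 31.1 CPM. Thy1, Dpt and Pdgfra fell, at log2 changes of -2.28, -2.49 and -1.38. Pi16 had too few counts for the test, at 32 in control and 2 with IL-1β. Relative to IL-1β alone, 3 of the 6 tested fibroblast markers rose with SFRP5 added, 2 fell and 1 was not called. Smooth muscle and pericyte markers summed to 836 to 850.4 CPM, 169 to 186 CPM and 327 to 339 CPM, with 2 of 4 tested falling, Cspg4 and Pdgfrb. Neutrophil markers summed to at most 0.101 CPM in control, 5.83 to 7.21 CPM with IL-1β and 4.83 to 7.22 CPM with SFRP5 added. Only Camp and S100a8 were tested, at 1 and 0 counts in control and 263 and 75 with IL-1β. S100a9 and Ly6g were at 0 counts in all libraries, while Ltf held 1 count, with SFRP5 added, and Mpo 2, in control. Endothelial markers summed to 0.812 to 1.11 CPM, 3.75 to 4.68 CPM and 2.54 to 3.64 CPM in the same order. Cdh5 and Tek, the 2 tested, went from 1 and 18 counts in control to 87 and 68 with IL-1β. Pecam1, Kdr, Tie1 and Vwf had too few counts for the test, at 5, 3, 1 and 28 in control and 30, 6, 0 and 19 with IL-1β. The part of these shifts in the Hedgehog values was not tested.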
